A study of Mus musculus with 3 samples.

Results

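The transcripts described here encode 10 ligands and receptors of the TGF-beta and BMP families: the ligands Tgfb1, Tgfb2, Tgfb3, Bmp4 and Bmp6, the receptors Tgfbr1, Tgfbr2 and Acvrl1, and the co-receptors Tgfbr3 and Eng. They were chosen by name, as 10 of the 17126 genes listed in at least 1 of the 3 libraries, and all 10 were listed in every library. Interstitial cells were released from mouse hearts with collagenase II, cleared of cardiomyocytes by a low-speed spin and sorted on Lin28 and cKit (the receptor encoded by Kit) at the cell surface. The 3 groups were Lin28+/cKit+ cells, Lin28+/cKit- cells and Lin28-/cKit- cells, with 1 droplet-based 3′ single-cell library each (10x Chromium). The labels name no strain, age, sex or number of mice, and no treatment or genetic change for any group.

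TGF-beta and BMP ligands are secreted dimers that bring type I and type II serine/threonine kinase receptors together, and the activated type I receptor passes the signal to SMAD transcription factors. In the heart, TGF-beta is best known for driving fibroblasts to make matrix, while the type I receptor ALK1 (Acvrl1) and its co-receptor endoglin (Eng) act mainly in endothelium, where their loss causes vascular malformations. BMP ligands also direct the formation of endocardium and valves in the embryo.

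The libraries held 1176 Lin28+/cKit+ cells with 10400648 UMIs (unique molecular identifiers, each 1 captured transcript), 681 Lin28+/cKit- cells with 7401174 UMIs and 3976 Lin28-/cKit- cells with 34031955 UMIs. The Lin28+/cKit+ and Lin28-/cKit- libraries shared 8 cell barcodes, the 2 Lin28+ libraries shared 1, and the remaining pair shared 0. Clusters were named from 18 marker lists, with all genes of the pathway left out of the clustering. Endothelial-like cells numbered 427 in the Lin28+/cKit+ library, 242 in the Lin28+/cKit- library and 923 in the Lin28-/cKit- library. Macrophage-like cells numbered 659, 335 and 25 in the same order of libraries, and fibroblast-like cells 12, 35 and 2769. Orders of levels given below are among these 3 classes, unless another class is named. All 10 endothelial and all 10 macrophage markers reached a level of 10 CPM (a gene's UMIs per 1000000 UMIs summed over a set of cells) in the cells named for them, as did all 10 fibroblast markers in both libraries with at least 20 fibroblast-like cells. Each group is 1 library, so no difference between groups has a replicate check, and no test was made. The 95% intervals below are exact and cover counting error only. A gene is called higher or lower between a pair of sums of cells where it has at least 20 UMIs in the pair, the ratio is at least 1.5-fold and its interval does not include 1.

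Of the 10 members, 7 were matched by symbol in the RefSeq table of promoters for GRCm38.p6 (the build mm10). Tgfb3, Tgfbr3 and Acvrl1 were not among them. The 250 bases before the start site, 5′ to 3′ on the coding strand, are shown for 4 members that stand for the cell classes in which the members were highest. Among cell classes with at least 50 cells, Tgfb2 and Bmp4 were highest in fibroblast-like cells, Tgfb1 in macrophage-like cells and Eng in endothelial-like cells.
Tgfb2 (chr1:186705990-186706239, minus strand): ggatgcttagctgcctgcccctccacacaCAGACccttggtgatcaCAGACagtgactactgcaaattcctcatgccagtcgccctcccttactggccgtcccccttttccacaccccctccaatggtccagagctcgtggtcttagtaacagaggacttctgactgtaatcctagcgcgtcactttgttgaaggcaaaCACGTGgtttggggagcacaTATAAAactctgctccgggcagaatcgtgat
Bmp4 (chr14:46390670-46390919, minus strand): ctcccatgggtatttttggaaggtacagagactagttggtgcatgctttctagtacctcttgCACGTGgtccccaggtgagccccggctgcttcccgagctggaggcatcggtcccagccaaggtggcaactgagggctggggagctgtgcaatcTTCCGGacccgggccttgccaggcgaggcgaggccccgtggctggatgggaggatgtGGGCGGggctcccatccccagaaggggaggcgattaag
Tgfb1 (chr7:25686752-25687001, plus strand): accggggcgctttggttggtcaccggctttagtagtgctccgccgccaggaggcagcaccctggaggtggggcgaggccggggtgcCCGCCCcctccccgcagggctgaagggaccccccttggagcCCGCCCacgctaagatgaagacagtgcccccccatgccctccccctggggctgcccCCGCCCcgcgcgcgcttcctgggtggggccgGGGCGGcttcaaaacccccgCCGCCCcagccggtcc
Eng (chr2:32646345-32646594, plus strand): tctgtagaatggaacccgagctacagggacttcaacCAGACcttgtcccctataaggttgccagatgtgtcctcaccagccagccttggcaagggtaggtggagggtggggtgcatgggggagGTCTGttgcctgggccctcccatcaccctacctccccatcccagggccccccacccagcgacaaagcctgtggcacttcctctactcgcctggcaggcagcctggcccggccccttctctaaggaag
Capitals mark every match, on either strand, to any of 8 motifs: the TATA box TATAAA, the cAMP response element TGACGT, the ETS core CCGGAA, the SMAD box GTCTAGAC, the shorter SMAD motif CAGAC, the GC box GGGCGG, the E box CACGTG and the GC-rich SMAD site GGCGCC. Positions are those of the first base of a match, counted from the start site. Tgfb2 had a TATA box at -31, an E box at -51 and SMAD motifs CAGAC at -221 and -204. Over the same window of all 32851 promoters in the table, 12.4% held the TATA box, 6.02% the E box and 42.2% CAGAC. Bmp4 had an E box at -188, an ETS core at -95 and a GC box at -38. Tgfb1 had no TATA box and 5 GC boxes, at -164, -123, -67, -36 and -16, where 32.7% of all promoters held at least 1. Eng had SMAD motifs CAGAC at -214 and -127. Of the bases in these windows, 53.6% were G or C for Tgfb2, 63.2% for Bmp4, 75.2% for Tgfb1 and 62.4% for Eng, against a median of 52.4% over all promoters. No match overlapped another. The matches are matches of letters and were not tested as binding sites.

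Summed over whole libraries, the 3 groups differed most in Tgfb2, Tgfb3, Tgfbr3 and Bmp4, which were lowest in Lin28+/cKit+ cells and highest in Lin28-/cKit- cells, and in Tgfb1, which was high in both Lin28+ libraries. Bmp4 had 11.6 CPM in Lin28+/cKit+ cells, 20.5 CPM in Lin28+/cKit- cells and 144 CPM in Lin28-/cKit- cells. Tgfb2 had 10.5, 15 and 106 CPM in the same order. These 2 ligands were thus far more abundant in the Lin28-/cKit- library. Tgfbr3 had 10.6 CPM in Lin28+/cKit+ cells, 19.5 CPM in Lin28+/cKit- cells and 121 CPM in Lin28-/cKit- cells. Tgfb3 had 2.5, 7.43 and 25.4 CPM. Tgfb1 had 192 CPM in Lin28+/cKit+ cells, 181 CPM in Lin28+/cKit- cells and 54.8 CPM in Lin28-/cKit- cells, the opposite order. The remaining 5 members lay closer together. Eng, for one, had 194, 216 and 214 CPM in the 3 libraries.

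In Lin28+/cKit- cells relative to Lin28-/cKit- cells, 1 of the 10 members was called higher and 4 lower. Of all 13765 genes measured in the pair, that is with 20 UMIs or more, 22.1% were called higher and 25.4% lower, 47.5% in either direction. The median log2 ratio of the members was -0.49, beside -0.08 over all genes. Tgfb1 was 3.30-fold higher (95% interval 3.07 to 3.54) in Lin28+/cKit- cells. Tgfb2 was 7.05-fold lower (5.83 to 8.59), Bmp4 7.02-fold lower (5.98 to 8.31), Tgfbr3 6.20-fold lower (5.25 to 7.37) and Tgfb3 3.41-fold lower (2.60 to 4.57). The ratios of Tgfbr1, Tgfbr2, Acvrl1, Bmp6 and Eng, at 1.36, 1.40, 0.697, 0.727 and 1.01, did not reach the call. Fibroblast-like cells made up 5.14% of the Lin28+/cKit- library and 69.6% of the Lin28-/cKit- library, and macrophage-like cells 49.2% and 0.629%. In these sums, fewer cells of a type and less RNA per cell cannot be told apart.

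In Lin28+/cKit+ cells relative to Lin28+/cKit- cells, 3 of the 10 members were called lower and none higher. Of all 12200 genes measured in this pair, 8.02% were called lower and 1.77% higher, 9.79% in either direction. Tgfb3 was 2.97-fold lower (1.83 to 4.94), Tgfbr3 1.84-fold lower (1.43 to 2.38) and Bmp4 1.77-fold lower (1.38 to 2.26) in Lin28+/cKit+ cells. The other 7 had ratios of 0.699 (Tgfb2) to 1.23 (Tgfbr1) and were not called. With scaling by TMM factors in place of CPM, the median log2 ratio of all genes moved by 0.11 and the share of calls that were higher was 34.1%, against 18.1% with CPM, while no member changed its call. Fibroblast-like cells were 1.02% of the Lin28+/cKit+ library and 5.14% of the Lin28+/cKit- library, and the part of this difference in the result was not tested.

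**Figure D1:**
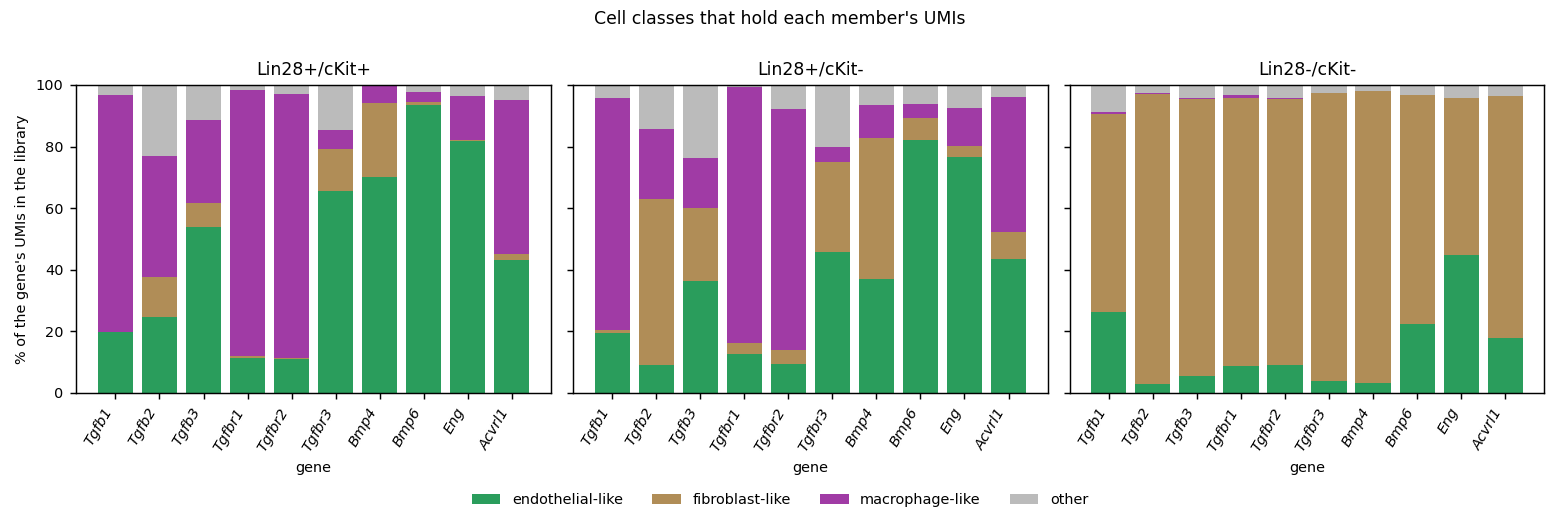
Share of each member's UMIs (percent, vertical axis) by the cell class that held them, in stacked bars for the Lin28+/cKit+, Lin28+/cKit- and Lin28-/cKit- libraries. Fibroblast-like cells held 94.9% of Bmp4 UMIs in the Lin28-/cKit- library, while macrophage-like cells held 77.1% of Tgfb1 UMIs in the Lin28+/cKit+ library and 75.4% in the Lin28+/cKit- library. Of all UMIs, the same cells held 82.6%, 69.2% and 62.6%, in the same order.

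The plot of UMI shares shows where each transcript came from. In the Lin28+/cKit+ library, endothelial-like cells held 93.4% of the Bmp6 UMIs, 81.8% of the Eng UMIs and 70.2% of the Bmp4 UMIs, and macrophage-like cells held 86.4% of the Tgfbr1 and 85.5% of the Tgfbr2 UMIs. Of all UMIs in this library, endothelial-like cells held 25.6% and macrophage-like cells 69.2%. Acvrl1 was split between the classes, with 473 of its UMIs in endothelial-like and 550 in macrophage-like cells. The 13 lymphatic endothelial-like cells of this library held 23 of its 109 Tgfb2 UMIs, or 21.1%. In the Lin28+/cKit- library the 35 fibroblast-like cells held 54.1% of the Tgfb2 UMIs and 46.1% of the Bmp4 UMIs, beside 5.73% of all UMIs. In the Lin28-/cKit- library fibroblast-like cells held more than any other class of every member, at the lowest 51.0% (Eng) and at the highest 94.9% (Bmp4). They also held 82.6% of all UMIs there. The shares of Eng, Tgfb1 (64.2%), Bmp6 (74.4%) and Acvrl1 (78.5%) lay below that figure, and those of the other members above it.

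**Figure D2:**
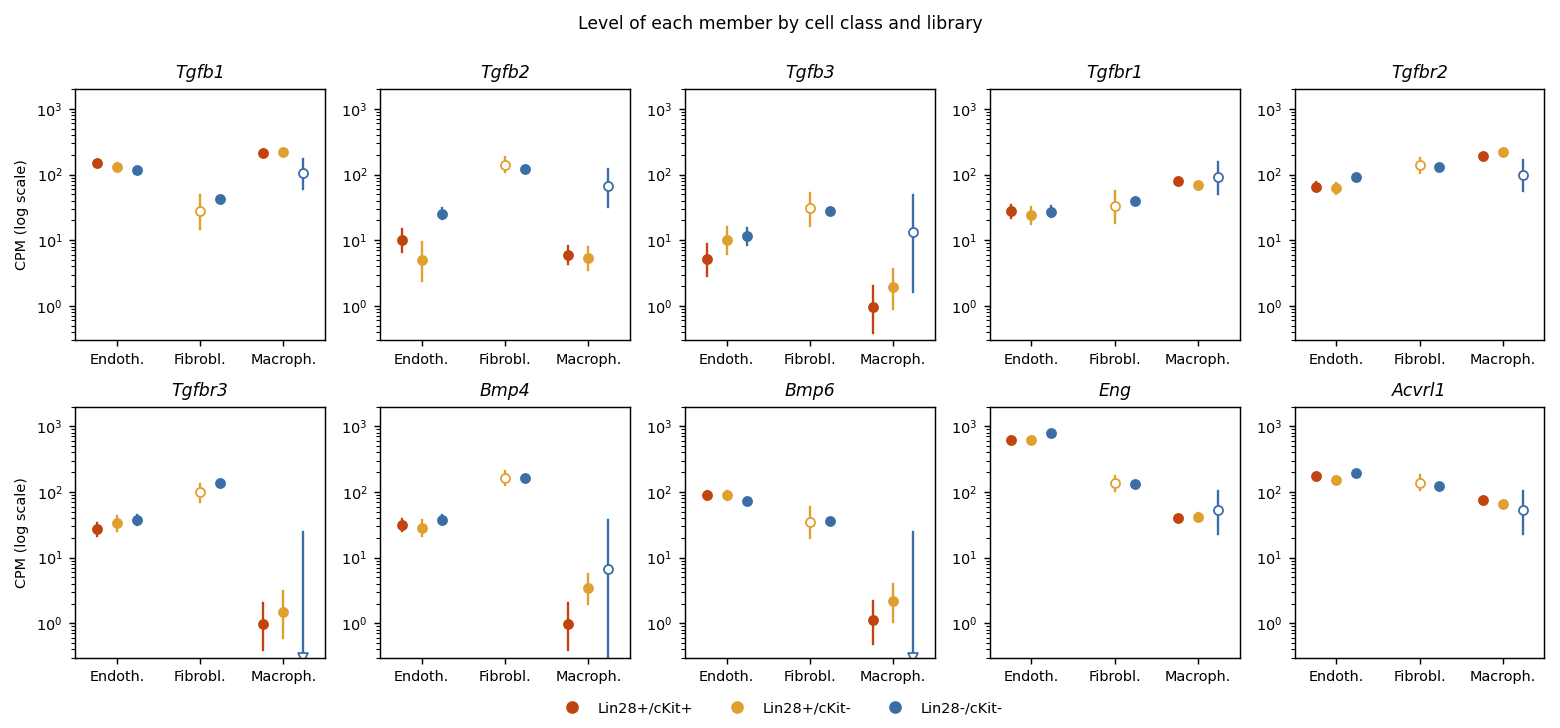
Level of each of the 10 members (CPM, log axis) in the cell classes with at least 20 cells, by library, with exact 95% Poisson intervals. Open symbols stand for groups of under 50 cells and triangles at the foot of a panel for 0 UMIs. Bmp6 and Tgfbr3 lie at or below 2.16 CPM in the macrophage-like cells of both Lin28+ libraries.

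Of the 5 ligands among the members, Tgfb1 had the highest level in macrophage-like cells of both Lin28+ libraries. This isoform, secreted in latent form, is the TGF-beta made most widely by immune cells. Tgfb1 (chr7:25687002-25705077, plus strand) had 214 CPM (203 to 225) in macrophage-like cells of the Lin28+/cKit+ library and 217 CPM (204 to 231) in those of the Lin28+/cKit- library. Endothelial-like cells had 148, 132 and 117 CPM in Lin28+/cKit+, Lin28+/cKit- and Lin28-/cKit- cells. Fibroblast-like cells of the Lin28-/cKit- library had 42.6 CPM (40.2 to 45.0). The order was thus macrophage-like, endothelial-like, fibroblast-like, with no overlap of the intervals where both classes had at least 50 cells. The 25 macrophage-like cells of the Lin28-/cKit- library had 106 CPM (60.8 to 173), from 16 UMIs. In these 25 cells the 10 endothelial markers summed to 2279 CPM and the 10 fibroblast markers to 3735 CPM, and the part of those transcripts in their member levels was not tested.

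Tgfb2 and Tgfb3, the other TGF-beta isoforms, were higher in fibroblast-like than in endothelial-like and macrophage-like cells. Tgfb2 (chr1:186622792-186705989, minus strand) had 141 CPM (108 to 182) in the 35 fibroblast-like cells of the Lin28+/cKit- library and 121 CPM (116 to 125) in those of the Lin28-/cKit- library. Pericyte-like cells of the Lin28-/cKit- library, 39 cells, had 139 CPM (90.2 to 206), which overlaps both. Endothelial-like cells had 10.1 CPM in Lin28+/cKit+ cells, 5.07 CPM in Lin28+/cKit- cells and 25.3 CPM in Lin28-/cKit- cells. Macrophage-like cells had 5.97 and 5.40 CPM in the Lin28+/cKit+ and Lin28+/cKit- libraries. Tgfb3 (chr12:86056745-86079041, minus strand) had 30.6 CPM (16.3 to 52.4) in the fibroblast-like cells of the Lin28+/cKit- library and 27.6 CPM (25.7 to 29.6) in those of the Lin28-/cKit- library. Pericyte-like cells of the Lin28-/cKit- library had 27.9 CPM (9.05 to 65.1), from 5 UMIs. The endothelial-like levels of Tgfb3 were 5.25, 10.1 and 11.5 CPM in Lin28+/cKit+, Lin28+/cKit- and Lin28-/cKit- cells. Lymphatic endothelial-like cells, too few for a level, held 3 Tgfb3 UMIs of 105276 UMIs in all in the Lin28+/cKit+ library, 11 of 120342 in the Lin28+/cKit- library and 6 of 83006 in the Lin28-/cKit- library. Those are larger fractions than the ones in endothelial-like cells of the same libraries. They are also larger than those in fibroblast-like cells of the same libraries. In the Lin28+/cKit+ library the fibroblast-like cells held only 2 Tgfb3 UMIs, of 104662 UMIs in all. Of Tgfb2, the lymphatic endothelial-like cells held 23, 13 and 6 UMIs in the same order of libraries. The first fraction is larger than that of the Lin28+/cKit+ fibroblast-like cells (14 of 104662), and the others are smaller than those of fibroblast-like cells. In the Lin28+/cKit- library, the intervals of both isoforms in fibroblast-like cells lay above those in endothelial-like and macrophage-like cells.

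Bmp4, a ligand of the BMP type I receptors, followed Tgfb2. Bmp4 (chr14:46383520-46390669, minus strand) had 165 CPM (129 to 209) in fibroblast-like cells of the Lin28+/cKit- library and 166 CPM (161 to 171) in those of the Lin28-/cKit- library. Endothelial-like cells had 31.9, 28.4 and 37.8 CPM in Lin28+/cKit+, Lin28+/cKit- and Lin28-/cKit- cells. Macrophage-like cells had 0.972 CPM, from 7 UMIs, in the Lin28+/cKit+ library and 3.45 CPM, from 16 UMIs, in the Lin28+/cKit- library. The intervals of the libraries overlapped in fibroblast-like and in endothelial-like cells. After each cell was thinned to 1000 UMIs, 2.74% (1.78 to 4.01) of endothelial-like and 14.6% (13.3 to 16.0) of fibroblast-like cells of the Lin28-/cKit- library had a Bmp4 UMI, against 10.9% and 63.0% before thinning at medians of 4065 and 10123 UMIs per cell. In macrophage-like cells the thinned share was 0.159% in the Lin28+/cKit+ library.

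Bmp6, a BMP ligand that endothelium of the liver secretes to control hepcidin and iron, was highest in endothelial-like cells. Bmp6 (chr13:38345107-38500302, plus strand) had 90.8 CPM (79.7 to 103) in Lin28+/cKit+, 89.2 CPM (76.5 to 103) in Lin28+/cKit- and 72.7 CPM (64.7 to 81.3) in Lin28-/cKit- endothelial-like cells. Fibroblast-like cells had 35.4 CPM (19.8 to 58.3) in the Lin28+/cKit- library and 35.8 CPM (33.6 to 38.1) in the Lin28-/cKit- library. Macrophage-like cells had 1.11 and 2.16 CPM in the Lin28+/cKit+ and Lin28+/cKit- libraries. The order endothelial-like, fibroblast-like, macrophage-like held in each library where the classes were measured.

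The receptors split differently from the ligands. Tgfbr2, the type II receptor that binds TGF-beta, and Tgfbr1, the type I receptor ALK5 that it recruits, were higher in macrophage-like cells of the Lin28+ libraries than in endothelial-like or fibroblast-like cells. Tgfbr2 (chr9:116084293-116175360, minus strand) had 189 CPM (179 to 199) in Lin28+/cKit+ and 217 CPM (204 to 231) in Lin28+/cKit- macrophage-like cells. Fibroblast-like cells had 139 CPM (106 to 179) in the Lin28+/cKit- library and 129 CPM (125 to 134) in the Lin28-/cKit- library. Endothelial-like cells had 65.7, 61.8 and 92.0 CPM in Lin28+/cKit+, Lin28+/cKit- and Lin28-/cKit- cells. Their intervals lay below those of the other 2 classes in each library, except that the 25 macrophage-like Lin28-/cKit- cells, at 99.7 CPM (55.8 to 164), overlapped. The 13 lymphatic endothelial-like cells of the Lin28+/cKit+ library held 40 Tgfbr2 UMIs of 105276 UMIs in all, and the 17 of the Lin28+/cKit- library 64 of 120342. These are larger fractions than in macrophage-like cells, in groups too small for a level. Tgfbr1 (chr4:47353222-47414931, plus strand) had 78.8 CPM (72.4 to 85.5) and 68.4 CPM (61.1 to 76.4) in macrophage-like cells of the Lin28+/cKit+ and Lin28+/cKit- libraries. It had 39.7 CPM (37.4 to 42.1) in fibroblast-like cells of the Lin28-/cKit- library. Endothelial-like cells had 27.8, 24.3 and 27.3 CPM in Lin28+/cKit+, Lin28+/cKit- and Lin28-/cKit- cells, and these 3 values did not differ beyond their intervals. A Tgfbr1 and a Tgfbr2 UMI were found in the same cell in 38.7% of Lin28+/cKit+ and 39.7% of Lin28+/cKit- macrophage-like cells, in 4.68%, 4.96% and 4.66% of the endothelial-like cells of Lin28+/cKit+, Lin28+/cKit- and Lin28-/cKit- libraries, and in 22.4% of fibroblast-like Lin28-/cKit- cells. The median depth of these groups ran between 4065 and 12563 UMIs per cell, and its part in these shares was not tested.

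Tgfbr3 (betaglycan), which presents TGF-beta to Tgfbr2, had the fibroblast pattern of Tgfb2 and Bmp4. Tgfbr3 (chr5:107106570-107289629, minus strand) had 99 CPM (71.4 to 134) in the 35 fibroblast-like cells of the Lin28+/cKit- library and 136 CPM (132 to 141) in the Lin28-/cKit- library. Endothelial-like cells had 27.0, 33.5 and 37.5 CPM in Lin28+/cKit+, Lin28+/cKit- and Lin28-/cKit- cells. Macrophage-like cells had 7 UMIs in each Lin28+ library, or 0.972 CPM in Lin28+/cKit+ and 1.51 CPM in Lin28+/cKit- cells. The intervals of the 3 classes did not overlap among these values.

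Eng and Acvrl1, the co-receptor and the type I receptor of the endothelial branch, were both present outside the endothelial-like cells too. Eng was higher in endothelial-like than in macrophage-like and fibroblast-like cells of every library, while Acvrl1 was not set apart from fibroblast-like cells in the Lin28+/cKit- library. Eng (chr2:32646595-32682669, plus strand) had 621 CPM (591 to 651) in Lin28+/cKit+, 619 CPM (585 to 655) in Lin28+/cKit- and 782 CPM (756 to 809) in Lin28-/cKit- endothelial-like cells. Fibroblast-like cells had 137 CPM (104 to 177) in the Lin28+/cKit- library and 132 CPM (128 to 137) in the Lin28-/cKit- library. Macrophage-like cells had 40.1 CPM (35.7 to 45.1) in Lin28+/cKit+ and 41.9 CPM (36.2 to 48.2) in Lin28+/cKit- cells. In these macrophage-like cells the 10 endothelial markers reached a median of 6.77% and 7.17% of their level in the whole library, in the same order. With free RNA subtracted at those shares, 194 of 289 and 122 of 194 Eng UMIs were left. Acvrl1 (chr15:101128522-101145336, plus strand) had 178 CPM (162 to 194) in Lin28+/cKit+, 150.04 CPM (133 to 168) in Lin28+/cKit- and 191 CPM (178 to 205) in Lin28-/cKit- endothelial-like cells. It had 139 CPM (106 to 179) in fibroblast-like Lin28+/cKit- cells and 125 CPM (121 to 130) in fibroblast-like Lin28-/cKit- cells. It had 76.4 and 64.5 CPM in macrophage-like cells of the Lin28+/cKit+ and Lin28+/cKit- libraries. Both transcripts were seen in the same cell in 54.1%, 56.6% and 46.8% of the endothelial-like cells of Lin28+/cKit+, Lin28+/cKit- and Lin28-/cKit- libraries. The share was 18.5% and 21.5% in macrophage-like cells of Lin28+/cKit+ and Lin28+/cKit- libraries, and 47.1% in fibroblast-like Lin28-/cKit- cells, close to that of the endothelial-like cells of the same library. Those fibroblast-like cells had a median of 10123 UMIs and those endothelial-like cells one of 4065, and the part of depth in these shares was not tested.

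Set against each other within a library, endothelial-like and macrophage-like cells differed in most members. In Lin28+/cKit+ cells, 7 of the 10 members were called higher and 2 lower in endothelial-like than in macrophage-like cells, where 37.3% of all genes measured were called higher and 20.1% lower, 57.4% in either direction. In Lin28+/cKit- cells 6 were called higher and 3 lower, beside 33.6% and 20.5% of all genes, 54.1% in either direction. Tgfbr3 was 27.8-fold higher (12.8 to 71.6), Eng 15.5-fold higher (13.6 to 17.6) and Acvrl1 2.32-fold higher (2.05 to 2.63) in endothelial-like Lin28+/cKit+ cells. Tgfbr1 was 2.84-fold lower (2.22 to 3.66) and Tgfbr2 2.88-fold lower (2.46 to 3.39) in them. In Lin28-/cKit- cells, endothelial-like over fibroblast-like, Eng (5.91-fold), Tgfb1 (2.76-fold), Bmp6 (2.03-fold) and Acvrl1 (1.53-fold) were called higher, and Tgfb2 (4.76-fold), Bmp4 (4.39-fold), Tgfbr3 (3.64-fold) and Tgfb3 (2.41-fold) lower. That makes 8 of 10 members, where 24.3% of all genes measured were called higher and 21.4% lower, 45.6% in either direction. The clusters were built without the members, so these values did not enter the choice of cells. With fibroblast markers at 7.32% of their library level in these endothelial-like cells, 114 of 158 Bmp4 UMIs, 73.6 of 106 Tgfb2 UMIs and 120 of 157 Tgfbr3 UMIs were left after subtraction at that share.

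**Figure D3:**
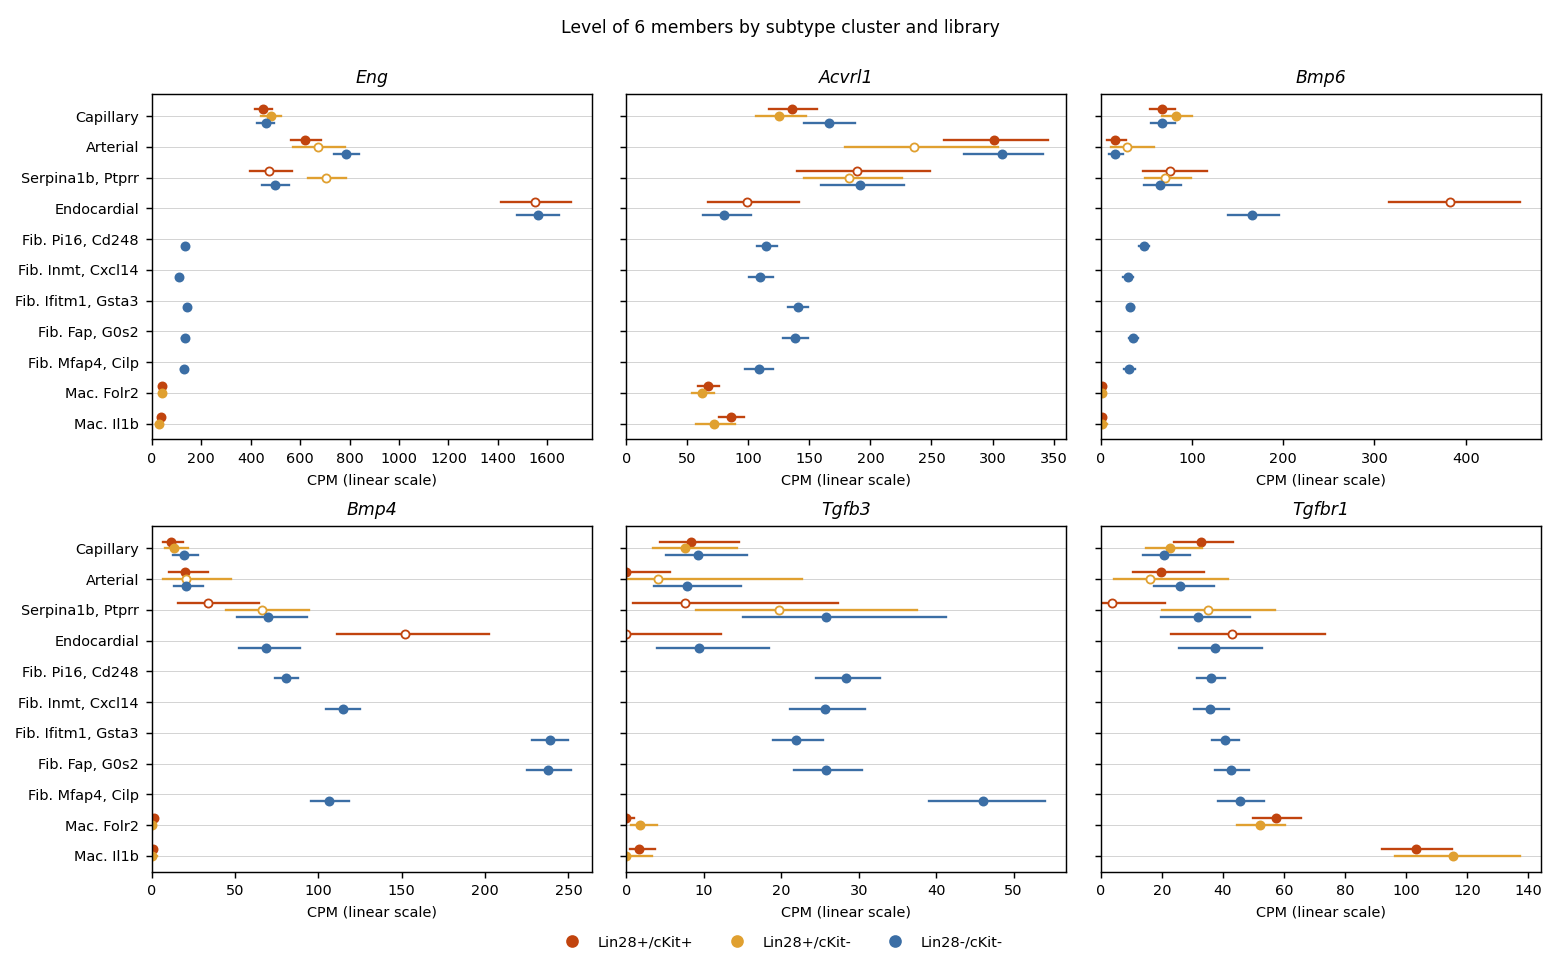
Level (CPM, linear axis) of Eng, Acvrl1, Bmp6, Bmp4, Tgfb3 and Tgfbr1 in the subtype clusters with at least 20 cells, by library, with exact 95% Poisson intervals, and open symbols for groups of under 50 cells. Eng reaches 1548 CPM in the endocardial-like cluster of the Lin28+/cKit+ library and 1561 CPM in that of the Lin28-/cKit- library.

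Within the endothelial-like cells, the members separated the clusters from each other. The endocardial-like cluster, named from Npr3, Nrg1 and other endocardial markers, had 32 cells in the Lin28+/cKit+ library, 11 in the Lin28+/cKit- library, too few for a level, and 106 in the Lin28-/cKit- library. Eng had 1548 CPM (1411 to 1695) in its Lin28+/cKit+ cells and 1561 CPM (1478 to 1647) in its Lin28-/cKit- cells, which do not differ beyond their intervals. Bmp6 had 383 CPM (316 to 459) in its Lin28+/cKit+ cells and 166 CPM (139 to 195) in its Lin28-/cKit- cells, 2 intervals that do not overlap. The Lin28+/cKit+ cell with the most Bmp6 held 14 of the 116 UMIs. Bmp4 had 152 CPM (111 to 203) in the Lin28+/cKit+ cells, but 24 of the 46 UMIs came from 1 cell, and 68.8 CPM (52.3 to 88.7) in the Lin28-/cKit- cells. No ratio was taken between these libraries because 1 of them had under 50 cells. In Lin28-/cKit- cells, relative to the other endothelial-like cells, 6 members were higher in the endocardial-like cluster and Acvrl1 was lower, where 28.3% of all genes measured were called. Tgfbr3 was 3.83-fold higher (2.76 to 5.30), Bmp6 3.40-fold (2.69 to 4.28), Eng 2.68-fold (2.5 to 2.88), Tgfb2 2.44-fold (1.61 to 3.67, with 15 of 41 UMIs in 1 cell), Bmp4 2.31-fold (1.64 to 3.22) and Tgfbr2 2.19-fold (1.77 to 2.71). Acvrl1 was 2.74-fold lower (2.14 to 3.56).

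Acvrl1 had its highest levels in the arterial-like cluster, named from Hey1, Sema3g and other arterial genes. Its level there was 301 CPM (260 to 346) in Lin28+/cKit+, 236 CPM (179 to 305) in Lin28+/cKit- and 308 CPM (276 to 341) in Lin28-/cKit- cells. Relative to other endothelial-like cells, Acvrl1 was 2.19-fold higher (1.82 to 2.64) in Lin28+/cKit+ and 2.09-fold higher (1.81 to 2.41) in Lin28-/cKit- arterial-like cells. Bmp6 was 7.61-fold lower (4.07 to 16.1) and 6.08-fold lower (3.78 to 10.4) there, at 15.2 and 15.5 CPM. In the 38 Lin28+/cKit- arterial-like cells, the intervals of Acvrl1 and Bmp6 overlapped those of the cluster led by Serpina1b and Ptprr. In the other libraries Acvrl1 was highest and Bmp6 lowest in arterial-like cells, beyond the intervals. Tgfb2 was 2.44-fold higher (1.04 to 5.58, from 12 arterial-like UMIs) in Lin28+/cKit+ and 2.25-fold higher (1.5 to 3.35) in Lin28-/cKit- arterial-like cells. Bmp4 (2.14-fold) and Tgfbr3 (2.23-fold) were lower there in the Lin28-/cKit- library. That makes 3 of 9 members measured in Lin28+/cKit+ and 5 of 10 in Lin28-/cKit- cells, where 12% and 14.9% of all genes measured were called.

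The capillary-like cluster, named from Car4, Timp4 and other capillary genes, was the largest of the endothelial-like clusters in every library. Eng had 452 CPM (418 to 488) in its Lin28+/cKit+, 481 CPM (443 to 522) in its Lin28+/cKit- and 461 CPM (427 to 496) in its Lin28-/cKit- cells, with overlapping intervals. Relative to other endothelial-like cells it was 1.81-fold, 1.72-fold and 2.09-fold lower in the same order. Tgfbr2 was 1.76-fold, 1.79-fold and 2.09-fold lower there, and Bmp4 4.69-fold, 3.80-fold and 2.51-fold lower. Acvrl1 was 1.67-fold and 1.5-fold lower in Lin28+/cKit+ and Lin28+/cKit- cells, and Tgfb2 4.11-fold and 5.42-fold lower in Lin28+/cKit+ and Lin28-/cKit- cells. Bmp6 was 1.78-fold lower in Lin28+/cKit+ cells and Tgfbr3 1.55-fold lower in Lin28-/cKit- cells. So 6 of 9, 4 of 9 and 5 of 10 members measured were lower and none higher, where 13%, 12.5% and 16.9% of all genes measured were called in Lin28+/cKit+, Lin28+/cKit- and Lin28-/cKit- cells. Tgfb1 was not called in this cluster in any library, with 147, 144 and 148 CPM. The cluster led by Serpina1b and Ptprr, left without a subtype name because other clusters scored higher on every subtype list, had a Bmp4 level of 65.9 CPM (44.5 to 94.1) in its 48 Lin28+/cKit- cells and 69.8 CPM (51.1 to 93.2) in its 128 Lin28-/cKit- cells. In the Lin28-/cKit- library its Tgfb3 level of 25.8 CPM (15 to 41.3) was 2.93-fold that of the other endothelial-like cells (1.52 to 5.47), from 17 UMIs. Bmp4 was 2.20-fold higher there as well, and Tgfb2 (3.11-fold), Tgfbr3 (1.91-fold), Tgfbr2 (1.71-fold) and Eng (1.68-fold) were lower, 6 of 10 members where 11.6% of all genes measured were called.

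Within the fibroblast-like cells of the Lin28-/cKit- library, Bmp4 varied most. It had 239 CPM (228 to 250) in the 840 cells of the cluster led by Ifitm1 and Gsta3 and 238 CPM (225 to 251) in the 704 cells of the cluster led by Fap and G0s2. It had 114 CPM (105 to 125) in the cluster named from Inmt and Cxcl14, 107 CPM (95.7 to 118) in the cluster led by Mfap4 and Cilp, and 80.4 CPM (73.8 to 87.5) in the adventitial-like cluster, named from Pi16 and Cd248. The first 2 clusters did not differ from each other beyond their intervals, and the adventitial-like cluster was below all others. Relative to other fibroblast-like cells, Bmp4 was 1.76-fold higher (1.66 to 1.87) in the cluster led by Ifitm1 and Gsta3 and 1.60-fold higher (1.5 to 1.71) in that led by Fap and G0s2, where 7.21% and 9.83% of all genes measured were called. It was 2.40-fold lower (2.19 to 2.63) in the adventitial-like cluster, where 11.4% of all genes were called, and the only member called in these 3 clusters. It was also lower in the cluster named from Inmt and Cxcl14 (1.53-fold, 1.39 to 1.68) and in that led by Mfap4 and Cilp (1.63-fold, 1.46 to 1.82).

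The cluster led by Mfap4 and Cilp, whose leading genes also include the matrix gene Postn, had the most Tgfb1 and Tgfb3. Tgfb1 had 68.1 CPM (59.5 to 77.6) in its 297 cells, 1.74-fold the level of the other fibroblast-like cells (1.5 to 2.01). Tgfb3 had 46.1 CPM (39.0 to 54.1), 1.83-fold theirs (1.52 to 2.19). Where 7.72% of all genes measured were called, these 2 ligands were higher and Bmp4 was lower. In the cluster named from Inmt and Cxcl14 Tgfb1 had 29.9 CPM, 1.5-fold lower than in other fibroblast-like cells (1.25 to 1.81), where 8.26% of all genes measured were called. Tgfb3 lay between 22.0 and 28.4 CPM in the other 4 clusters. Tgfb2, Tgfbr1, Tgfbr2, Tgfbr3, Eng, Acvrl1 and Bmp6 were called in none of the 5 fibroblast-like clusters. Tgfbr3, for one, ran only between 133 and 144 CPM.

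Within the macrophage-like cells, Tgfbr1 was higher in the cluster named from Il1b and other inflammatory genes. Tgfbr1 had 103 CPM (92.3 to 115) there in Lin28+/cKit+ and 116 CPM (96.5 to 137) in Lin28+/cKit- cells, 1.73-fold (1.46 to 2.05) and 2.16-fold (1.71 to 2.72) the level of the other macrophage-like cells. In the cluster named from Folr2 and other genes of resident macrophages it had 57.3 and 52.1 CPM, 1.75-fold and 2.10-fold lower than in other macrophage-like cells. Tgfb2, scarce as it was, lay almost wholly in the Folr2 cluster, with 40 of 43 macrophage-like UMIs in the Lin28+/cKit+ library and 25 of 25 in the Lin28+/cKit- library. The cells with the most Tgfb2 held 8 of the 40 and 5 of the 25. In Lin28+/cKit+ cells the Tgfb2 level of the Folr2 cluster was 13.1-fold that of other macrophage-like cells (4.18 to 66.3). Eng was 1.67-fold lower (1.13 to 2.54) in the Il1b cluster of the Lin28+/cKit- library, at 27.8 CPM. Of the 6 members measured in each comparison, 2 were called in the Folr2 cluster in both libraries, where 12.2% of all genes measured in Lin28+/cKit+ and 12.3% in Lin28+/cKit- cells were called. In the Il1b cluster 2 were called in Lin28+/cKit+ and 3 in Lin28+/cKit- cells, where 12.5% and 13.5% of all genes were. Tgfb1 and Tgfbr2 were called in neither cluster. Tgfb1 had 229 CPM in Lin28+/cKit+ and 215 CPM in Lin28+/cKit- cells of the Folr2 cluster and 199.98 and 236 CPM in the Il1b cluster, without a common order.

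**Figure D4:**
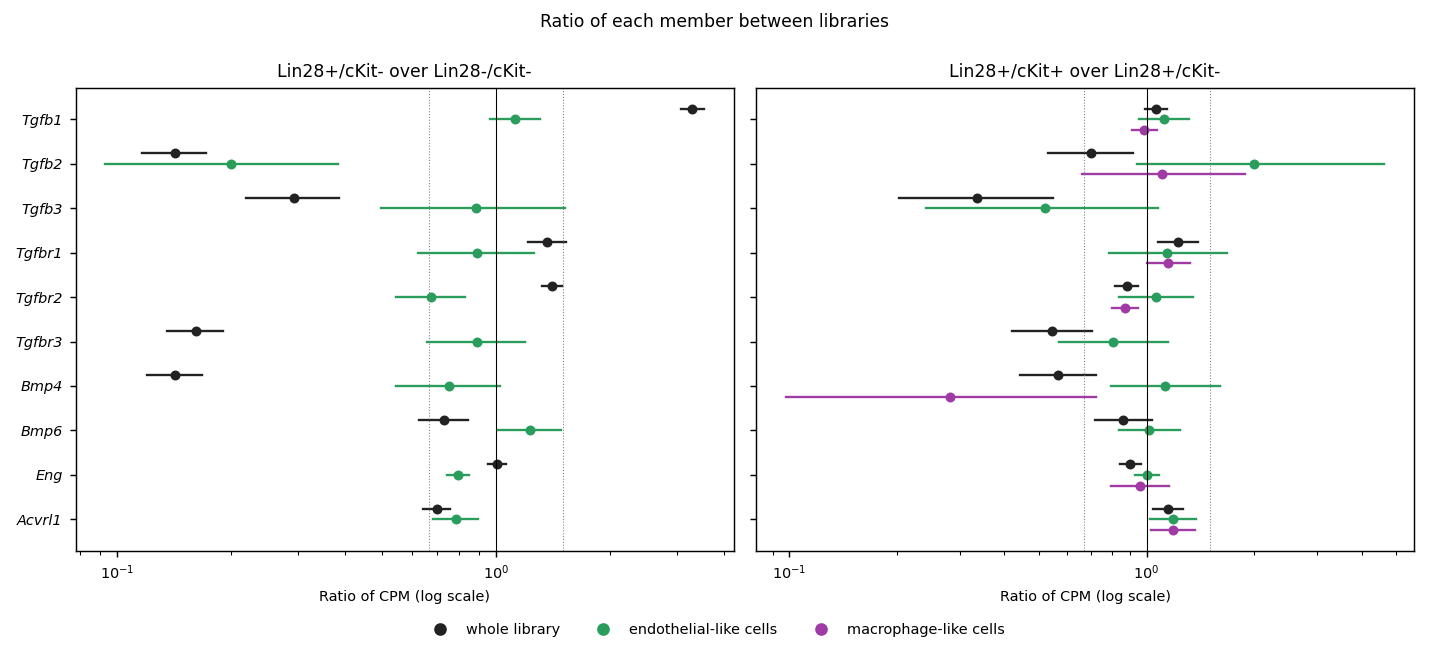
Ratio of CPM (log axis) of each member with at least 20 UMIs in the pair, Lin28+/cKit- over Lin28-/cKit- in one panel and Lin28+/cKit+ over Lin28+/cKit- in the other, for whole libraries and within cell classes, with exact 95% intervals and dotted lines at 1.5-fold in each direction. Tgfb1 is 3.30-fold higher in the whole Lin28+/cKit- library and 1.12-fold within endothelial-like cells.

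Between the Lin28+/cKit- and Lin28-/cKit- libraries, endothelial-like cells were the one class with at least 50 cells in both, so no ratio was taken in fibroblast-like or macrophage-like cells. Of the 5 members called over the whole libraries, 1, Tgfb2, was also called within endothelial-like cells. In endothelial-like cells, Lin28+/cKit- over Lin28-/cKit-, 1 of 10 members was called lower and none higher, where 6.98% of all 10286 genes measured were called lower and 3.93% higher, 10.9% in either direction. Tgfb1 had a ratio of 1.12 (0.962 to 1.31), Bmp4 0.752 (0.544 to 1.03), Tgfbr3 0.891 (0.658 to 1.20) and Tgfb3 0.884 (0.497 to 1.52). The intervals of these 4 members exclude the ratios found between the whole libraries. Eng, at 0.792 (0.741 to 0.846), Acvrl1, at 0.784 (0.683 to 0.896), and Tgfbr2, at 0.672 (0.544 to 0.826), had intervals below 1 without reaching the call, and Bmp6, at 1.23 (1.01 to 1.48), one above 1. The clusters made up different shares of the endothelial-like cells: capillary-like cells were 59.9% in the Lin28+/cKit- and 40.6% in the Lin28-/cKit- library, arterial-like cells 15.7% and 34.0%, and endocardial-like cells 4.55% and 11.5%. Within the capillary-like cluster Eng had a ratio of 1.05 (0.934 to 1.17), Tgfbr2 of 0.866 (0.605 to 1.23) and Acvrl1 of 0.756 (0.613 to 0.929). Tgfb2, in all endothelial-like cells, was called lower, with 5.07 CPM in Lin28+/cKit- and 25.3 CPM in Lin28-/cKit- cells, a log2 ratio of -2.32 and 5.0-fold (2.61 to 10.7). It rested on 10 UMIs in Lin28+/cKit- cells, 9 of them from 1 cell. With the subtype clusters weighted equally its log2 ratio was 0.08 and the call was lost. Without the cell with the most Tgfb2 UMIs in each library it was -5.42. In the capillary-like cluster, 0 of the 9 members measured were called, where 7.39% of all genes were.

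Between the Lin28+ libraries, endothelial-like and macrophage-like cells could both be compared. In endothelial-like cells, Lin28+/cKit+ over Lin28+/cKit-, 0 of 10 members were called, where 6.9% of all 9644 genes measured were. Arterial-like cells were 27.4% of them in the Lin28+/cKit+ and 15.7% in the Lin28+/cKit- library, and capillary-like cells 56.2% and 59.9%. Eng had a ratio of 1.00 (0.930 to 1.08) and Bmp6 of 1.02 (0.835 to 1.24), so that a 1.5-fold difference lies outside both intervals. The intervals of Tgfb2 (0.938 to 4.63, from 27 and 10 UMIs) and Tgfb3 (0.242 to 1.08, from 14 and 20 UMIs) were wide and do not exclude one. Acvrl1, at 1.18 (1.02 to 1.37), had an interval above 1 without reaching the call. Without the cell with the most Tgfb2 UMIs in each library, 1 UMI was left in Lin28+/cKit- cells and Tgfb2 was called higher, at a log2 ratio of 3.81 against 1.00. In macrophage-like cells, 7 of the 10 members had at least 20 UMIs and 1 was called lower, where 6.45% of all 10703 genes measured were called, 4.85% lower and 1.6% higher. The Il1b cluster was 49.0% of these cells in the Lin28+/cKit+ and 26.6% in the Lin28+/cKit- library, the Folr2 cluster 40.8% and 53.1%, and the cluster led by Cd209f and Cbr2 7.59% and 17.9%. Tgfb3, Tgfbr3 and Bmp6 had fewer than 20 UMIs and were not compared. Tgfb1 had a ratio of 0.984 (0.908 to 1.07), Tgfbr1 of 1.15 (1.00 to 1.32) and Tgfbr2 of 0.871 (0.802 to 0.946). Acvrl1 had a ratio of 1.18 (1.03 to 1.37). The member called was Bmp4, with 7 UMIs in Lin28+/cKit+ and 16 in Lin28+/cKit- macrophage-like cells, a ratio of 0.282. Of those 16 UMIs, 14 came from 1 cell, and without the cell with the most Bmp4 UMIs in each library the log2 ratio was 0.36. With TMM factors the median log2 ratio of all genes in macrophage-like cells moved by 0.11, and 46.7% of calls were higher, against 24.8% with CPM. The members' calls did not change with it.

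Around the members, 66 other genes of the pathway were listed by role, of which 59 were present in the tables. In Lin28+/cKit- over Lin28-/cKit- whole libraries, 8 of 56 measured were called higher and 31 lower, where 22.1% of all genes measured were called higher and 25.4% lower. Their median log2 ratio was -0.99, beside -0.08 over all genes. The higher ones included the matrix target Tgfbi (3.99-fold), the SMAD co-repressor Tgif1 (3.81-fold), the distant family ligand Gdf15 (3.14-fold) and Nrros (50.2-fold, 39.9 to 63.9), which anchors latent TGF-beta on macrophages. All 9 measured antagonists but 1 were lower, led by Bmper (28.5-fold) and the activin antagonist Fst (16.9-fold). Of the 10 genes for latency proteins, 9 were lower, among them Ltbp2 (11.3-fold) and the fibrillin gene Fbn1 (8.02-fold). The BMP type I receptor Bmpr1a was 5.47-fold lower. Fibroblast-like cells were 5.14% of the Lin28+/cKit- and 69.6% of the Lin28-/cKit- library, and macrophage-like cells 49.2% and 0.629%. The part of these shares in the calls was not tested.

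Within endothelial-like cells of the same pair, 13 of 43 other pathway genes were called lower and none higher, where 6.98% of all genes measured were called lower and 3.93% higher. Inhba, which encodes a subunit of activin A, had 1 UMI in Lin28+/cKit- cells (0.507 CPM) and 234 in Lin28-/cKit- cells (55.9 CPM), a ratio of 0.00906 (0.000228 to 0.0510). Thbs1, an activator of latent TGF-beta, was 8.25-fold lower (3.08 to 31.1), from 4 UMIs. Fstl1 (2.88-fold) and Bambi (2.06-fold), a decoy receptor, were lower as well, as was the receptor Bmpr1a (2.32-fold). The 10 fibroblast markers summed to 478 CPM in these Lin28+/cKit- cells and 6370 CPM in these Lin28-/cKit- cells, and their part in the 13 calls was not tested.

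Between the Lin28+ libraries, 1 of 47 other pathway genes was called higher and 12 lower over all cells, where 1.77% of all genes measured were called higher and 8.02% lower. Bambi was the one higher, 1.64-fold (1.24 to 2.19), and Thbs1 was 5.6-fold lower (4.34 to 7.32) and Fstl1 3.27-fold lower (2.79 to 3.86) in Lin28+/cKit+ cells. Fibroblast-like cells were 1.02% of the Lin28+/cKit+ and 5.14% of the Lin28+/cKit- library, and the part of this difference was not tested. In endothelial-like cells 4 of 38 were higher and none lower, where 3.43% of all genes measured were called higher and 3.46% lower. They included Postn (3.82-fold, 2.09 to 7.54), Bambi (3.31-fold, 2.00 to 5.77) and Bmpr1a (2.22-fold, 1.13 to 4.69). The Lin28+/cKit- levels of these 3 rested on 13, 19 and 12 UMIs. The 10 fibroblast markers summed to 1688 CPM in the Lin28+/cKit+ and 478 CPM in the Lin28+/cKit- endothelial-like cells. The highest of these markers alone gave 1191 and 271 CPM, in the same order. The part of fibroblast transcripts, and of the endothelial-like cluster shares given above, in these calls was not tested. In macrophage-like cells 1 of 35 was higher and 2 lower, where 1.6% and 4.85% of all genes measured were. The BMP target Id1 was 1.73-fold higher (1.42 to 2.11), while its relative Id3 was 1.66-fold lower (1.53 to 1.79) and Ctgf 3.11-fold lower, from 7 and 14 UMIs. The clusters of these cells had different shares in the libraries, as given above. Id1 was called in the Il1b cluster, at 2.24-fold (1.51 to 3.43), and not in the Folr2 cluster, where its ratio was 1.40 (1.09 to 1.81). Id3 was called lower in both, 1.66-fold (1.45 to 1.88) in the Il1b cluster and 1.81-fold (1.62 to 2.02) in the Folr2 cluster.

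Among the SMAD and other intracellular genes, none was called between the Lin28+ libraries over all cells, in endothelial-like cells as a whole or in macrophage-like cells as a whole, but 3 were called in single clusters. In the capillary-like cluster Smurf1, which encodes a ubiquitin ligase that acts on the pathway, was 2.26-fold higher (1.10 to 4.99, from 30 and 11 UMIs) in Lin28+/cKit+ cells. Smad6, an inhibitory SMAD, was 2.07-fold higher there (1.09 to 4.16, from 35 and 14 UMIs). With Bambi, that makes 3 of 32 other pathway genes higher and none lower in this cluster, where 2.3% of all genes measured were called higher and 3.27% lower, 5.57% in either direction. In the Il1b cluster Smad5, which carries BMP signals, had a ratio of 0.546 (0.318 to 0.955, from 37 and 24 UMIs). It was 1 of 3 lower, beside 3 higher, among 28 other pathway genes. Of all genes measured, 4.62% were called lower and 2.51% higher, 7.13% in either direction. The 3 higher were Gdf15, 4.06-fold (2.98 to 5.66, from 504 and 44 UMIs), Ltbp4, from 29 and 1 UMIs, and Id1. Itgav, 1.95-fold (1.27 to 2.96), and Id3 were lower beside Smad5. Of the members, 0 of 9 measured in the capillary-like and 0 of 5 in the Il1b cluster were called in this pair.

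Over 18 groups of cells (classes or subtype clusters of a library with at least 50 cells), the level of each member was set beside that of 2921 other genes by Pearson's r of log2(CPM + 1). The most alike were Htra1 for Bmp4 (r = 0.987), Gstm2 for Tgfbr3 (0.986), Ptpn18 for Tgfb1 (0.966), Tanc1 for Eng (0.966), Abi3bp for Tgfb3 (0.951), Prmt1 for Bmp6 (0.945), Rab3il1 for Tgfbr2 (0.942), Fbln5 for Tgfb2 (0.936), Cxcl16 for Tgfbr1 (0.927) and Cxcl12 for Acvrl1 (0.915). The groups share libraries, and subtype clusters are parts of their classes, so these values are descriptions without a test.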

How the data were processed

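The authors deposited 1 table per library of natural log (ln) values, which in the files equal ln(1 + 10000 × a gene's UMIs divided by its cell's total). The build mm10, Cell Ranger and Seurat 4.0.2 are named in the submitters' processing notes. Those sources state no filter on cells, and in the files every cell had at least 500 UMIs and at most 9.99% mitochondrial UMIs. Undoing the log and dividing by each cell's smallest value gave whole numbers for 100% of values (within 0.01), and these recovered UMIs took the place of the count tables that the plan had assumed. Cells of all libraries were clustered together with scanpy 1.11.5 and leidenalg 0.10.2 (2000 variable genes, 30 components, 15 neighbours, resolution 1), without pathway genes, Kit, Lin28a and Lin28b. Clusters were named where their markers scored at least 0.4 and no unrelated class reached more than 0.5 of that score, among other rules. The 210 unnamed cells passed the first limit and stayed unnamed for strong markers of a second class. They were 142 cells with fibroblast and endothelial markers and 68 with neutrophil and T cell markers. A subtype list named only the cluster with its highest score. Scrublet marked 24 of 5833 cells (0.411%), too few to have worked, and none were removed.

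Levels are CPM of summed UMIs with exact Poisson intervals, ratios have exact conditional binomial intervals (scipy 1.17.1) and shares Clopper-Pearson intervals, all at 95%. Each UMI marks the 3′ end of 1 transcript, so CPM does not scale with gene length. A level needed 20 cells and a ratio 50 cells on each side. Ratios and their intervals were also run on simulated counts with known folds and counting error only. Such counts hold no spread between cells or libraries, so they cannot test the calls against it. Gene positions are from GENCODE vM21, and promoters from RefSeq. The members and gene lists were chosen with earlier results of these data known. The plan was to name all 10 members in each comparison, but not every comparison here names them all. Up to 2 other pathway genes per role and direction with the largest called ratios could be named. For likeness, the first of the 3 most alike is named.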

Additional observations from a re-analysis of the deposited data

How the results depend on the processing

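No paired analysis was possible because each group is 1 library. Among log2 ratios of members, 544 stayed within the 95% interval of the value reported, 34 left it and 6 reversed. Leaving out the cell with the most UMIs of a gene was an alternative chosen after seeing the data. By the mean over cells, with subtypes weighted equally and with free RNA subtracted, calls used the fold and UMI limits without the interval. Counts under these settings are thus under a looser rule than the main ones. The causes below were not tested.

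In endothelial-like cells, Lin28+/cKit- over Lin28-/cKit-, the count of members lower (1) was 2 with cells of at least 2000 UMIs and 2 without the top cell, both adding Tgfbr2. It was 0 in the largest subtype and 0 with subtypes weighted equally, where Tgfb2 reversed to a log2 ratio of 0.0802 and 1 member, Bmp6, was higher against 0. Of the other pathway genes, 8 rather than 13 were lower at a minimum of 100 UMIs.

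For Lin28+/cKit+ over Lin28+/cKit- over all cells, a 2-fold call left 1 of 3 members lower and 0 of 1 other pathway gene higher. In endothelial-like cells, members lower (0) numbered 2 by the mean over cells, 2 with subtypes weighted equally, 1 with classes from own markers and 1 with free RNA subtracted. Tgfb3 was among them only in the settings that did not use the interval. With classes from own markers, where the interval was used, the member lower was Bmp4. The log2 ratio of Tgfb3 was -0.90 by the mean over cells, -1.46 with subtypes weighted equally and -0.95 with free RNA subtracted. It was -0.95 in the main run. Members higher (0) numbered 1, Tgfb2, without the top cell, with own markers and with free RNA subtracted. Other pathway genes higher (4) numbered 1 at 100 UMIs.

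In macrophage-like cells of that pair, the 1 member lower, Bmp4, became 0 at 100 UMIs and with free RNA subtracted. It also became 0 where Bmp4 reversed: log2 ratio 1.45 without the 5% highest doublet scores, 0.36 without the top cell, 1.98 at resolution 0.5, 1.92 with own markers and 1.87 in the largest subtype. With subtypes weighted equally, 1 member, Tgfb2, was higher. Other pathway genes higher (1) numbered 0 at 2-fold, and those lower (2) numbered 1 at 2-fold and 1 at 100 UMIs.

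Thinning to 1000 UMIs per cell moved 57 shares of cells out of their interval and left 3 within it, and low members such as Tgfb2 in macrophage-like cells rest on few UMIs.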
